A study of Homo sapiens with 4 samples.

Results

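The small RNA library of Hep3B-C cells, hepatic cancer stem cells (HCSCs), was compared with that of Hep3B, the hepatoma cell line (HCC cells) from which they were cultured. These are 2 of the 4 libraries of the series, chosen by the cell line given in the labels, and the remaining libraries are the like pair from the line Huh7. For each library the file lists 1733 miRNA names of miRBase release 17 with their counts. Hep3B grows as an adherent human liver tumor line, and Hep3B-C cells are stem-like cells enriched from it in culture. No transgene or drug is named in the labels for either group. Each condition had 1 library, so no difference below has a replicate check and no p-value is given. The intervals are 95% Clopper-Pearson intervals, cover counting error only, and take the reads as independent although they passed through PCR. The 2 populations may differ in the cells they hold as well as in the RNA of each cell, and in bulk RNA fewer cells of a type and less RNA per cell cannot be told apart.

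A miRNA is cut from a hairpin precursor, and either arm of the hairpin can be loaded into an Argonaute protein. The loaded strand pairs with messenger RNAs mainly through its seed, bases 2 to 8 from the 5′ end, so miRNAs of 1 seed share many predicted targets. In the liver, hsa-miR-122 is the best known hepatocyte miRNA, the group of hsa-miR-192, hsa-miR-194 and hsa-miR-215 is a further liver and gut set, and hsa-miR-21 is high in most tumors. In the older names used here, an asterisk marks the arm that was thought to be the less abundant one.

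The sequences below belong to miRNAs on which the results turn. They are the RefSeq mature forms on GRCh38.p14, written 5′ to 3′, with the seed in capitals. The first 4 lines are the most abundant miRNA of each library and both arms of the hairpin with the largest increase, the next 4 are pairs of miRNAs with a common seed, and these are followed by large increases (hsa-miR-629, hsa-miR-1262), a large decrease (hsa-miR-210), 5 members of the hsa-miR-23, hsa-miR-27 and hsa-miR-24 clusters, whose share of the miRNA counts was smaller in the HCSCs, and the arms of 1 hairpin that moved apart.
hsa-miR-378: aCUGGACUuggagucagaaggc
hsa-miR-21: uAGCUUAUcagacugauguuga
hsa-miR-122: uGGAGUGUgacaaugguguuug
hsa-miR-122*: aACGCCAUuaucacacuaaaua
hsa-miR-192: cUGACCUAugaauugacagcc
hsa-miR-215: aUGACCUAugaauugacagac
hsa-miR-146a: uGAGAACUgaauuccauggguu
hsa-miR-146b-5p: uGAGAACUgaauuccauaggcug
hsa-miR-629: uGGGUUUAcguugggagaacu
hsa-miR-1262: aUGGGUGAauuuguagaaggau
hsa-miR-210: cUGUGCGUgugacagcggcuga
hsa-miR-23a: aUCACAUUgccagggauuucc
hsa-miR-23b: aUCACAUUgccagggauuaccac
hsa-miR-27a: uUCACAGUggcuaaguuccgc
hsa-miR-27b: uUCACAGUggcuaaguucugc
hsa-miR-24: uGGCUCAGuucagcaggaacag
hsa-miR-15b: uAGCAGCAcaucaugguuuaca
hsa-miR-15b*: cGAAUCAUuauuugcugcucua

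Their places were read from RefSeq and from GENCODE release 29, both on GRCh38. Hsa-miR-378 lies at chr5:149732867-149732888 (plus strand) in an intron of PPARGC1B, a coactivator of mitochondrial genes. Hsa-miR-21 lies at chr17:59841273-59841294 (plus strand), where it overlaps an exon of VMP1. Hsa-miR-122 and hsa-miR-122* lie at chr18:58451088-58451109 and chr18:58451124-58451145 (plus strand) in an exon of the non-coding host gene MIR122HG. Hsa-miR-192 lies at chr11:64891203-64891223 (minus strand) in an exon of MIR194-2HG, and hsa-miR-215 at chr1:220117916-220117936 (minus strand) in an intron of IARS2 on the other strand. Hsa-miR-146a lies at chr5:160485372-160485393 (plus strand) in an exon of MIR3142HG, and hsa-miR-146b-5p at chr10:102436520-102436542 (plus strand) outside any other gene. Hsa-miR-629 lies at chr15:70079427-70079447 (minus strand) in an intron of TLE3, and hsa-miR-1262 at chr1:68183576-68183597 (minus strand) in an intron of WLS. Hsa-miR-210 lies at chr11:568112-568133 (minus strand) in an intron of MIR210HG. Hsa-miR-23a (chr19:13836595-13836615), hsa-miR-27a (chr19:13836447-13836467) and a copy of hsa-miR-24 (chr19:13836289-13836310) stand together on the minus strand in an exon of the non-coding gene AC020916.1. Hsa-miR-23b (chr9:95085265-95085287), hsa-miR-27b (chr9:95085505-95085525) and the other copy of hsa-miR-24 (chr9:95086064-95086085) stand together on the plus strand of C9orf3, the first pair in an intron and hsa-miR-24 in an exon. Hsa-miR-15b and hsa-miR-15b* lie at chr3:160404607-160404628 and chr3:160404645-160404666 (plus strand) in an intron of SMC4.

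The libraries differed in depth and in how much of them was miRNA. The counts summed to 1739278 in Hep3B and 5430195 in Hep3B-C. Against the total reads of the study's data set description, the miRNA share was 10.36% in Hep3B (interval 10.35% to 10.38%) and 35.17% in Hep3B-C (interval 35.14% to 35.19%). Most results are therefore given on 2 scales, and some ratios on only 1 of them. The sources used here do not say whether these totals are raw or mapped reads, and the miRNA share and every TPM ratio rest on them. TPM is here the count per 1000000 of these total reads, since the study names TPM as its unit without giving the denominator, and CPM is the count per 1000000 miRNA counts. The scales differ by a constant 1.76 in every log2 ratio (3.39-fold), Hep3B-C over Hep3B. Where a log2 ratio is given in CPM only, it is higher by 1.76 in TPM. One that lies less than 1.76 below 0 in CPM thus lies above 0 in TPM. A count of 3, the smallest level taken as shown by the depth, equalled 1.72 CPM in Hep3B and 0.552 in Hep3B-C. Of the 1733 miRNAs, Hep3B showed 674 and Hep3B-C 773 at 1 count or more, and 357 and 463 at 10 counts or more. The part of the difference in depth or in the share of miRNA reads in any result below was not tested.

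The marker lists checked against the labels gave liver miRNAs and no pluripotency miRNAs. The 5 hepatocyte markers summed to 184745 counts in Hep3B and 548135 in Hep3B-C, or 106219 and 100942 CPM. Hsa-miR-192 (179088 and 386372 counts) made up most of this total. The near-equal sums hide members that differed, hsa-miR-122 with 397 and 149892 counts and hsa-miR-885-5p with 186 and 159. None of the 8 pluripotent stem cell markers had a count in either library, and the same held for all 20 names of the hsa-miR-302 and hsa-miR-371 to hsa-miR-373 clusters, the clusters that mark embryonic stem cells. The intervals of these zero counts reached up to 0.0002121% of miRNA counts in Hep3B and 6.793e-05% in Hep3B-C. The miRNAs of the placental cluster on chromosome 19 summed to 2 counts in Hep3B and 0 in Hep3B-C. Blood markers summed to 8 and 1 counts, muscle markers to 16 and 36, neuron markers to 157 and 855, endothelial markers to 876 and 1595, and mesenchymal markers to 428 and 1711. Hsa-miR-9 (154 and 844 counts) made up most of the neuron total, hsa-miR-143 (427 and 1706 counts) most of the mesenchymal total and hsa-miR-126 (807 and 1487 counts) most of the endothelial total.

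The HCSCs were more dominated by a few miRNAs, and the leading miRNA changed. Hsa-miR-21, an oncogenic miRNA, led in Hep3B with 18.96% of miRNA counts, and hsa-miR-378 led in Hep3B-C with 23.92%. The 5 most abundant miRNAs held 49.50% of the counts in Hep3B and 57.39% in Hep3B-C, and the 10 most abundant 68.91% and 74.66%. It took 6 miRNAs to reach 50% of the counts in Hep3B and 4 in Hep3B-C. Of the 15 most abundant miRNAs of each library, 12 were common to both.

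Hsa-miR-378 accounted for most of the shift in composition. It had 121101 counts in Hep3B (6.96% of miRNA counts) and 1298641 in Hep3B-C (23.92%), and the intervals of both shares were narrower than 0.1 percentage points. To turn the composition of one library into that of the other, 29.2% of the counts would have to change name, and hsa-miR-378 took 16.95 percentage points of this. Hsa-miR-182, which lies in a cluster with hsa-miR-183 and hsa-miR-96, had a share of 6.55% in Hep3B and 9.14% in Hep3B-C. Hsa-miR-122 had 0.0228% and 2.76%, hsa-miR-146b-5p 0.204% and 1.65%, and hsa-miR-148a 5.48% and 6.75%. These are the miRNAs whose shares were larger in the HCSCs by more than 1 percentage point.

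The shares that shrank were those of hsa-miR-21 and other miRNAs abundant in the parent line. Hsa-miR-21 went from 18.96% to 10.47% of miRNA counts although its counts were 329850 and 568486. Hsa-miR-146a, a feedback inhibitor of NF-kB signaling, went from 6.72% to 3.42%, and hsa-miR-192 from 10.30% to 7.12%. Hsa-miR-99b went from 2.23% to 0.764%, hsa-miR-30d from 2.89% to 1.56%, hsa-miR-93 from 2.25% to 1.06% and hsa-let-7a from 6.03% to 5.09%. On the scale of total reads hsa-miR-21, hsa-miR-146a and hsa-miR-192 were all higher in Hep3B-C, with log2 ratios of 0.91, 0.79 and 1.23. Their direction thus depended on the scale.

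**Figure D1:**
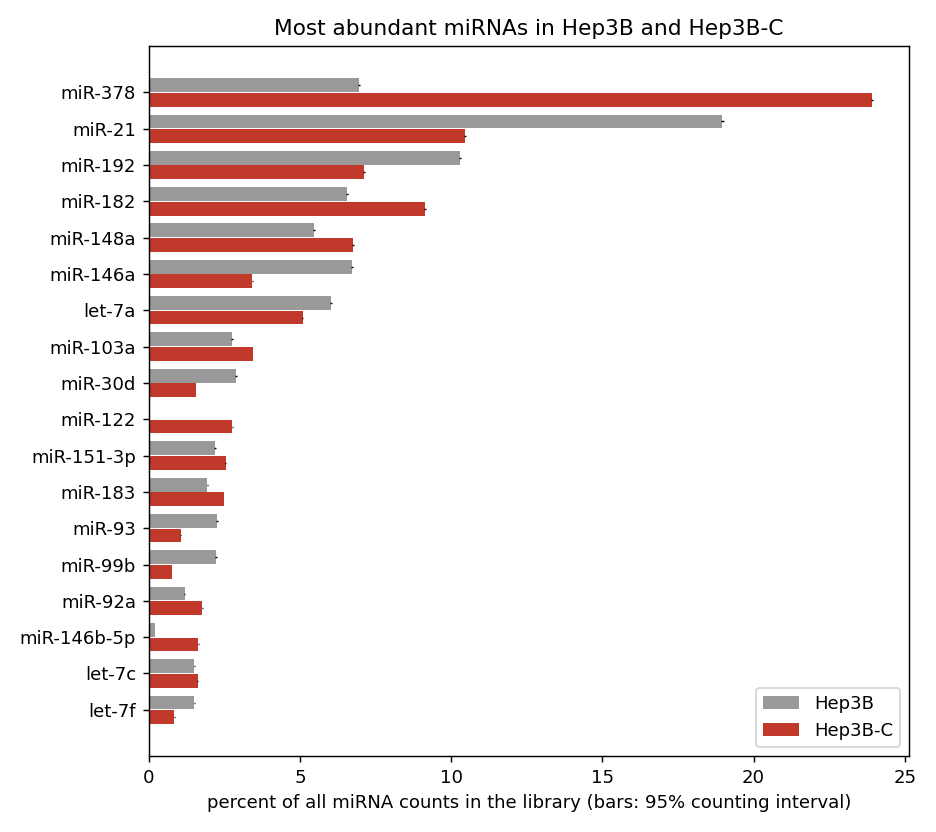
Share of all miRNA counts (x axis, percent) of the 18 miRNAs that were among the 15 most abundant in Hep3B (grey) or in Hep3B-C (red); error bars are 95% counting intervals, mostly narrower than the bar ends. Hsa-miR-378 went from 6.96% to 23.92% and hsa-miR-21 from 18.96% to 10.47%, and the bar of hsa-miR-122 is not visible in Hep3B at 0.0228%.

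Fold changes were computed for the 475 miRNAs that reached 10 counts in either library, which held 99.97% of the counts in Hep3B and 99.98% in Hep3B-C. Of these, 345 had at least 10 counts in both libraries, 118 only in Hep3B-C and 12 only in Hep3B. Another 359 names had fewer counts and 899 had none in both libraries. A miRNA was called higher or lower in the HCSCs when its ratio was at least 2-fold, a log2 ratio of 1 in size. A count of 0, which occurred in Hep3B for 17 of the 475 miRNAs and in Hep3B-C for none of them, was set at 3 counts. The ratio is then taken at that floor, and counting error in the other count is left out of it.

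The balance of the calls turned with the scale. In TPM, 320 miRNAs (67.4%) were called higher in Hep3B-C and 24 (5.05%) lower, with a median log2 ratio of 1.46. In CPM, 84 (17.7%) were called higher and 119 (25.1%) lower, with a median of -0.31. In TPM, the middle 50% of the log2 ratios lay between 0.76 and 2.37. The 84 called higher and the 24 called lower were called on both scales. Other scalings tried (TMM library sizes, DESeq2 size factors and miRNA counts without the 5 most abundant miRNAs) lay between these scales, so a direction that held on both held on all. Conversely, 123 miRNAs called higher in TPM lay below 0 in CPM. The counting interval of the ratio included 0 for 78 miRNAs in TPM and for 178 in CPM.

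The median itself leaned on hsa-miR-378. With its counts left out of the library size, the median log2 ratio in CPM moved from -0.31 to -0.02. Over the 345 miRNAs that reached 10 counts in both libraries the medians were 1.25 in TPM and -0.52 in CPM. When the miRNAs were ranked by abundance and cut into 5 groups of 95, the group of lowest abundance had a median of 0.58 in CPM, and 90 of its members had under 10 counts in Hep3B. In the other 4 groups the medians lay between -0.54 and -0.40.

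**Figure D2:**
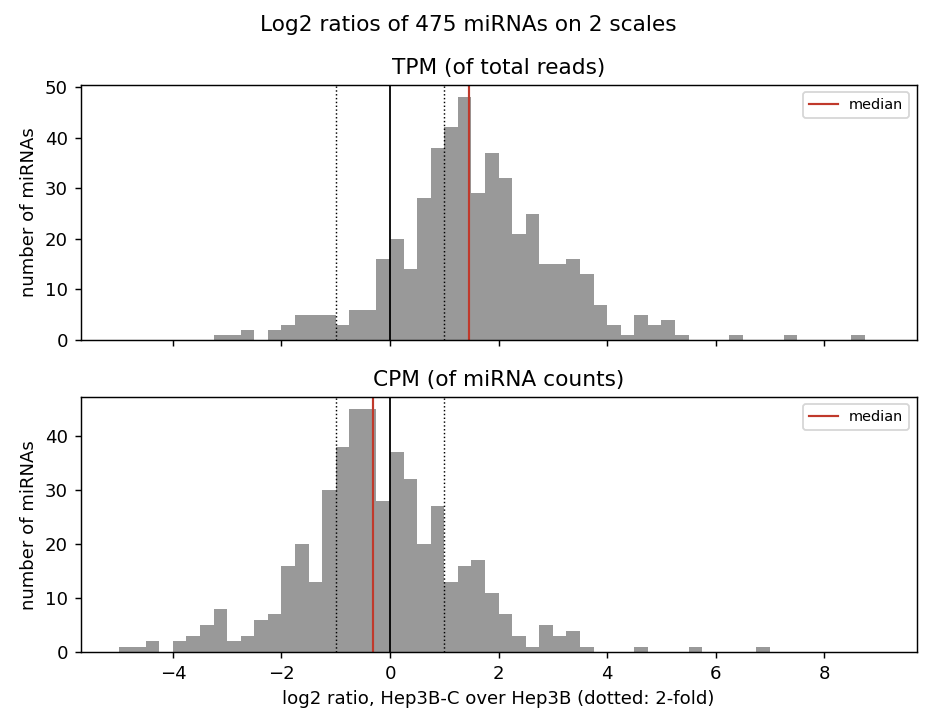
Histograms of the log2 ratio of Hep3B-C over Hep3B for 475 miRNAs (y axis, number of miRNAs in bins of 0.25), in TPM above and in CPM below; the red line is the median and dotted lines mark 2-fold. The same distribution is moved by 1.76 between the panels, and its median by that shift from 1.46 to -0.31.

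Hsa-miR-122 increased more than any other kept miRNA. Its guide arm had 397 counts in Hep3B and 149892 in Hep3B-C, and it moved from rank 109 to rank 9. The log2 ratio was 8.68 in TPM (8.54 to 8.83) and 6.92 in CPM (6.78 to 7.06), or 121-fold on the second scale. Hsa-miR-122*, the other arm of the hairpin printed above, had 0 and 83 counts. With 0 set at 3 counts it was 30.1-fold higher in TPM and 8.86-fold higher in CPM. The interval of its log2 ratio in CPM began at 2.82. Hsa-miR-3591-5p, which RefSeq places on the opposite strand of the same hairpin over hsa-miR-122*, had 0 and 29 counts. It is named because of this overlap, after its values were seen, and whether the counting used strand is not given in the sources used here. In the Huh7 pair hsa-miR-122 had 489443 counts in the parent and 144814 in the HCSCs, a log2 ratio of -1.25 in CPM. The level that Hep3B-C reached, 27603 CPM, was far above that of Hep3B (228), and the direction was opposite to that in the Huh7 pair, a difference that was not tested.

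The rest of the liver-enriched list spread over a wide range. All 11 members had at least 10 counts in either library, 10 were called higher and 0 lower in TPM, and 4 were called higher and 1 lower in CPM, with medians of 2.06 and 0.30. Of all miRNAs, 67.4% were called higher and 5.05% lower in TPM, and 17.7% and 25.1% in CPM. Hsa-miR-215 had 1517 and 15756 counts, with log2 ratios of 3.50 in TPM and 1.73 in CPM. Hsa-miR-192, which has the same seed, had 179088 and 386372 counts, with log2 ratios of 1.23 and -0.53. The pair shares its seed but not its direction on the second scale. The printed sequences of hsa-miR-192 and hsa-miR-215 differ at few bases, and the counting may split reads between them. Hsa-miR-194 had 5074 and 11629 counts and hsa-miR-194* had 461 and 3059, with log2 ratios in CPM of -0.45 and 1.09. Hsa-miR-885-5p had 186 and 159 counts, the lowest ratio of the list (-0.11 in TPM and -1.87 in CPM). Summed, the list made up 16.29% of miRNA counts in Hep3B and 17.26% in Hep3B-C.

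Next after hsa-miR-122 came miRNAs that were near the limit of detection in Hep3B. Hsa-miR-629 had 8 counts in Hep3B and 1173 in Hep3B-C, with log2 ratios of 7.32 (6.33 to 8.53) in TPM and 5.55 (4.57 to 6.77) in CPM. Hsa-miR-1262 had 5 and 396 counts, with log2 ratios of 6.43 (5.19 to 8.06) and 4.66 (3.43 to 6.30). The wide intervals come from the low counts in Hep3B. Hsa-miR-1262 had 0 counts in both Huh7 libraries, and hsa-miR-629 had 5455 counts in Huh7 and 2548 in Huh7-C. Hsa-miR-3940-5p had 0 and 37 counts. With 0 set at 3 counts it was 13.4-fold higher in TPM and 3.95-fold higher in CPM, and the interval of its log2 ratio in CPM began at 1.61.

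Hsa-miR-146b was higher while hsa-miR-146a, with the same seed, took a smaller share. Hsa-miR-146b-5p had 3548 counts in Hep3B and 89356 in Hep3B-C, with log2 ratios of 4.77 (4.73 to 4.82) in TPM and 3.01 (2.96 to 3.06) in CPM. Its other arm, hsa-miR-146b-3p, had 3 and 107 counts, with a log2 ratio of 3.51 in CPM (1.93 to 5.81). Hsa-miR-146a had 116938 and 185624 counts, with log2 ratios of 0.79 and -0.98. The common seed GAGAACU made up 6.93% of miRNA counts in Hep3B and 5.06% in Hep3B-C, with hsa-miR-146a the larger contributor in both. Hsa-miR-146a and hsa-miR-146b-5p have their first 17 bases in common, and the counting may split reads between them.

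Increases on both scales were also seen among abundant miRNAs. Hsa-miR-378 had log2 ratios of 3.54 (3.53 to 3.55) in TPM and 1.78 (1.77 to 1.79) in CPM. Hsa-miR-375, known from pancreatic islets, had 3452 and 31379 counts, with log2 ratios of 3.30 and 1.54. Hsa-miR-7, a miRNA of neuroendocrine cells, had 365 and 4578 counts, with log2 ratios of 3.77 and 2.01. Hsa-miR-1269 and hsa-miR-1269b, both described in hepatoma and of 1 seed, had 784 and 6426 counts and 896 and 8787 counts. Their log2 ratios in CPM were 1.39 and 1.65. They have their first 12 bases in common and may share reads, so they are uncertain as 2 measurements. Hsa-miR-1268 (319 and 3437 counts) and hsa-miR-1268b (325 and 3487 counts) are near-identical in sequence and may share reads, so their log2 ratios of 1.79 and 1.78 are uncertain as 2 measurements. Of the 107 miRNAs that reached 1000 counts in either library, 18 were called higher and 24 lower in CPM, and 71 and 3 in TPM, shares near those of all miRNAs (17.7%, 25.1%, 67.4% and 5.05%).

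The miRNAs of the imprinted DLK1-MEG3 locus on chromosome 14, expressed from the maternal chromosome in embryo and placenta, were higher in Hep3B-C as a group. All 41 members that reached 10 counts in either library lay above 0 on both scales. In TPM 41 of 41 were called higher, beside 67.4% of all miRNAs, and in CPM 30 of 41, beside 17.7%. The medians of the members were 3.24 and 1.48, beside 1.46 and -0.31 for all miRNAs. Since 23 of the 41 had under 10 counts in Hep3B, and so passed the count minimum through Hep3B-C, the 18 that reached 10 counts in both libraries were also taken alone. Of these, 14 were called higher in CPM, with a median of 1.46, beside 36 of all 345 such miRNAs.

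Within the locus the size of the increase varied. Hsa-miR-379 was the most abundant member with 1037 counts in Hep3B and 10485 in Hep3B-C, with log2 ratios of 3.46 in TPM and 1.70 in CPM. Hsa-miR-134 followed with 842 and 4840 counts, and its log2 ratio of 0.88 in CPM did not reach 2-fold. Hsa-miR-127-3p had 344 and 2729 counts (log2 ratio 1.35 in CPM), hsa-miR-432 had 172 and 1470 (1.45) and hsa-miR-493* had 121 and 1263 (1.74). These 5 members lay between 0.88 and 1.74 on this scale. Hsa-miR-382 had 46 and 1182 counts, hsa-miR-409-3p had 18 and 557, hsa-miR-381 had 55 and 993, and hsa-miR-654-5p had 14 and 334, with log2 ratios in CPM of 3.04, 3.31, 2.53 and 2.93. The intervals of these 4 members lay above 2-fold on both scales. The highest value was that of hsa-miR-323-3p (1 and 34 counts, log2 ratio 3.44 in CPM). It rests on 1 count in Hep3B, under the 3 counts taken as shown by the depth. The lowest value, 0.23, was shared by hsa-miR-495 (3 and 11 counts) and hsa-miR-655 (0 and 11 counts, with 0 set at 3 counts).

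In the Huh7 pair few members of this locus could be compared, and these were lower in the HCSCs. Only 8 of its members had at least 10 counts in either Huh7 library, and all 8 were lower in Huh7-C, with a median log2 ratio of -2.69 in CPM. Of those named in this paragraph, all but hsa-miR-379 passed the count minimum through Huh7 alone. A member that passes in this way with few counts can hardly come out higher in Huh7-C. The 8 of 8 and the median therefore do not show a direction of the locus. Hsa-miR-411 and hsa-miR-889 each had 16 counts in Huh7 and 0 in Huh7-C, and hsa-miR-382 had 14 and 1. The share of all miRNAs that were lower in the Huh7 pair is not given here. Hsa-miR-379 had 359 counts in Huh7 and 12 in Huh7-C, and hsa-miR-381 had 74 and 2. The summed counts of the locus in the Hep3B pair were 3023 and 27107, or 1738 and 4992 CPM. The difference between the pairs was not tested, since each pair has 1 library a side.

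**Figure D3:**
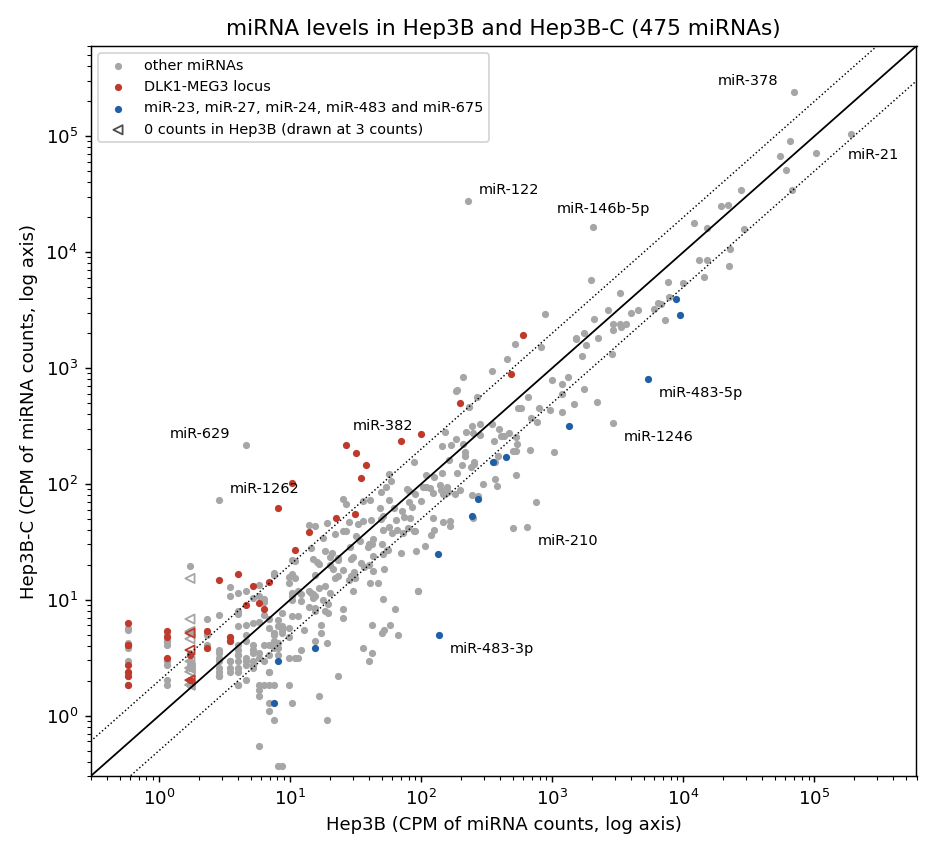
Levels of 475 miRNAs in Hep3B (x axis) and Hep3B-C (y axis) in CPM, both axes logarithmic; the solid line marks equal levels, dotted lines mark 2-fold, and triangles mark miRNAs at 0 counts in Hep3B, drawn at 3 counts. The 41 miRNAs of the DLK1-MEG3 locus (red) lie above the solid line and the 13 of the lists of hsa-miR-23, hsa-miR-27, hsa-miR-24, hsa-miR-483 and hsa-miR-675 (blue) below it, with hsa-miR-122 at 228 in Hep3B and 27603 in Hep3B-C.

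The largest decrease was that of hsa-miR-483-3p, which comes from an intron of IGF2. It had 236 counts in Hep3B and 27 in Hep3B-C, with log2 ratios of -3.01 (-3.64 to -2.43) in TPM and -4.77 (-5.40 to -4.19) in CPM. The other arm, hsa-miR-483-5p, had 9350 and 4393 counts, with log2 ratios of -0.97 and -2.73. Hsa-miR-675 and hsa-miR-675*, from the neighbouring H19 gene, had 27 and 21 counts and 233 and 135 counts, with log2 ratios in CPM of -2.01 and -2.43. All 4 members of this imprinted list thus lay below 0 on both scales, while 1 was called lower in TPM and 4 in CPM, beside 5.05% and 25.1% of all miRNAs. Hsa-miR-483-3p and hsa-miR-483-5p had 0 counts in both Huh7 libraries.

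Other decreases were called on both scales. Hsa-miR-210, induced by hypoxia-inducible factor, had 1120 and 229 counts, with log2 ratios of -2.17 (-2.38 to -1.96) in TPM and -3.93 (-4.14 to -3.73) in CPM. Hsa-miR-100, which targets MTOR, had 1307 and 378 counts, with log2 ratios of -1.67 and -3.43. Hsa-miR-1246 had 5048 and 1829 counts, the most abundant of the miRNAs called lower on both scales, with log2 ratios of -1.34 and -3.11. Hsa-miR-29c (100 and 33 counts) and hsa-miR-10b (90 and 30 counts) were called lower on both scales too. Hsa-miR-199a-3p and its twin hsa-miR-199b-3p each had 165 and 64 counts, identical in every library, and cannot be told apart. Hsa-miR-664 (70 and 16 counts) and hsa-miR-3200-3p (33 and 5 counts) completed the decreases whose interval lay furthest from 0.

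The hsa-miR-181 family split by genomic cluster. Hsa-miR-181a (10317 and 17631 counts) and hsa-miR-181b (11707 and 19204 counts) had log2 ratios of 0.89 and 0.83 in TPM and -0.87 and -0.93 in CPM. Hsa-miR-181c (88 and 28 counts), hsa-miR-181c* (116 and 27) and hsa-miR-181d (869 and 224), which share a cluster on chromosome 19, had log2 ratios of -1.53, -1.98 and -1.84 in TPM. All 7 members lay below 0 in CPM, with a median of -1.05. The seed is the same in the guide arms of all 4 family members, and the reads of such close sequences can be split between names by the counting.

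All 9 members of the hsa-miR-23, hsa-miR-27 and hsa-miR-24 clusters, from chromosome 9 and chromosome 19, were called lower in CPM, beside 25.1% of all miRNAs, and none was called in TPM. The medians were -1.72 and 0.05. Hsa-miR-24, the most abundant, had 16334 counts in Hep3B and 15507 in Hep3B-C, with log2 ratios of 0.05 in TPM and -1.72 in CPM. Hsa-miR-27b had 15208 and 21239 counts and hsa-miR-23b had 773 and 926, both of the cluster on chromosome 9. Hsa-miR-27a had 2340 and 1724 counts and hsa-miR-23a had 421 and 289, both of the cluster on chromosome 19. In CPM the log2 ratios were -1.16 and -1.38 in the first cluster and -2.08 and -2.19 in the second, so these guide arms were lower in the chromosome 19 cluster. The asterisk arms were mixed. Hsa-miR-27a* (-1.87) lay below hsa-miR-27b* (-1.20). Hsa-miR-23b* of chromosome 9 (13 and 7 counts) had the lowest ratio of the list, -2.54, and hsa-miR-24-2* of chromosome 19 (14 and 16 counts) had -1.45. The sequences printed above show that hsa-miR-23a and hsa-miR-23b, and hsa-miR-27a and hsa-miR-27b, have their first 18 bases in common.

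Among growth-control families, most let-7 members took a smaller share. The 9 let-7 guide names with hsa-miR-98, which restrain RAS and HMGA2, had a median log2 ratio of 0.51 in TPM and -1.25 in CPM, with 3 called higher and 0 lower on the first scale and 0 higher and 5 lower on the second. The 3 of 9 called higher in TPM are a smaller part than the 67.4% of all miRNAs, and the 5 of 9 called lower in CPM a larger part than the 25.1%. Hsa-let-7a (104924 and 276287 counts) and hsa-let-7c (26250 and 87854) had log2 ratios in CPM of -0.25 and 0.10. Hsa-let-7g (3827 and 2762) had -2.11, the lowest of the family. The sum over the family was 10.41% of miRNA counts in Hep3B and 8.17% in Hep3B-C, and most of it was hsa-let-7a. The hsa-miR-29 family, which targets collagens, summed to 2148 counts in Hep3B and 1402 in Hep3B-C, and 5 of 6 members were called lower in CPM, beside 25.1% of all miRNAs. Hsa-miR-29a, its most abundant member, had 1786 and 1023 counts, with log2 ratios of -0.68 and -2.45. Hsa-miR-29b-1* (13 and 92 counts, log2 ratio 1.18 in CPM) was the exception.

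The MYC-driven hsa-miR-17-92 cluster was uneven. Hsa-miR-92a had 20863 counts in Hep3B and 96268 in Hep3B-C, with a log2 ratio of 0.56 in CPM. Hsa-miR-17 (17417 and 29610 counts) had -0.88, hsa-miR-20a (22741 and 46172) had -0.62, and hsa-miR-18a (2074 and 3251) had -0.99. These miRNAs are cut from 1 transcript, while hsa-miR-92a can also come from the related hsa-miR-106a-363 cluster. All 11 members lay above 0 in TPM, 8 of them called higher, a share near the 67.4% of all miRNAs, and 2 of 11 lay above 0 in CPM, hsa-miR-92a and hsa-miR-92a-1*. The related hsa-miR-106b-25 cluster showed the same kind of spread. Its member hsa-miR-25, which has the seed of hsa-miR-92a, had 3618 and 14427 counts and a log2 ratio of 0.35 in CPM. Hsa-miR-93 (39212 and 57425 counts) and hsa-miR-106b (3034 and 3540) had -1.09 and -1.42.

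The hsa-miR-200 family, which keeps cells epithelial by targeting ZEB1 and ZEB2, also split by cluster. Hsa-miR-200c (606 and 5085 counts) and hsa-miR-141 (27 and 236), which lie together on chromosome 12, had log2 ratios of 3.19 and 3.25 in TPM and 1.43 and 1.49 in CPM. Hsa-miR-200b (3850 and 9812 counts), hsa-miR-200a (1373 and 2434) and hsa-miR-429 (916 and 1053), which lie together on chromosome 1, had -0.29, -0.82 and -1.44 in CPM. Of the 8 members, 2 were called higher and 1 lower on that scale and 6 higher and 0 lower in TPM, near the shares of all miRNAs called higher (17.7% in CPM and 67.4% in TPM). The family summed to 7445 and 20574 counts.

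The lists of the hsa-miR-30 family, of hsa-miR-99, hsa-miR-100 and hsa-miR-125, and of hsa-miR-221 and hsa-miR-222 also had more members called lower than higher in CPM. In the hsa-miR-30 family hsa-miR-30d (50330 and 84977 counts) and hsa-miR-30a (24819 and 33017) had log2 ratios of -0.89 and -1.23, and 4 of 11 members were called lower. In the list of hsa-miR-99, hsa-miR-100 and hsa-miR-125 hsa-miR-99b (38773 and 41499 counts) had -1.54 and hsa-miR-125b (381 and 1517) had 0.35, with 0 of 9 members called higher and 4 lower. The 4 names of hsa-miR-221 and hsa-miR-222, which target CDKN1B, had a median of -1.33, with 3 called lower. Each of these lists had a larger part called lower than the 25.1% of all miRNAs. In TPM the balance turned. There 5 were called higher and 0 lower in the hsa-miR-30 family, 5 and 1 in the hsa-miR-99 list, and 1 and 0 in the hsa-miR-221 list. Of all miRNAs, 67.4% and 5.05% were called higher and lower in TPM.

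Further groups differed in where they lay against 0 in CPM. The 4 hsa-miR-320 names, cut without Drosha, had log2 ratios from 0.25 to 0.83 in CPM, with hsa-miR-320a at 2617 and 9717 counts. In the hsa-miR-182 cluster hsa-miR-182 (113976 and 496361 counts) and hsa-miR-183 (33817 and 135151) had 0.48 and 0.36, and hsa-miR-96 (249 and 677) had -0.20. In the hsa-miR-15 and hsa-miR-16 family, which targets BCL2, hsa-miR-16 (1422 and 8258 counts) and hsa-miR-15b (403 and 2506) had 0.90 and 0.99, the highest values of the list. Of its 8 members, 3 lay above 0 and 5 below, with 0 called higher, 2 called lower and a median of -0.28. In TPM, 6 of the 8 were called higher and 1 lower, beside 67.4% and 5.05% of all miRNAs. Of the 10 kept names of the hsa-miR-532 cluster on the X chromosome, none lay above 0 in CPM and 3 were called lower, near the 25.1% of all miRNAs. In TPM, 9 of these 10 lay above 0, with 5 called higher and 0 lower. Hsa-miR-532-5p, the most abundant of the cluster, had 668 and 940 counts and a log2 ratio of -1.15 in CPM.

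**Figure D4:**
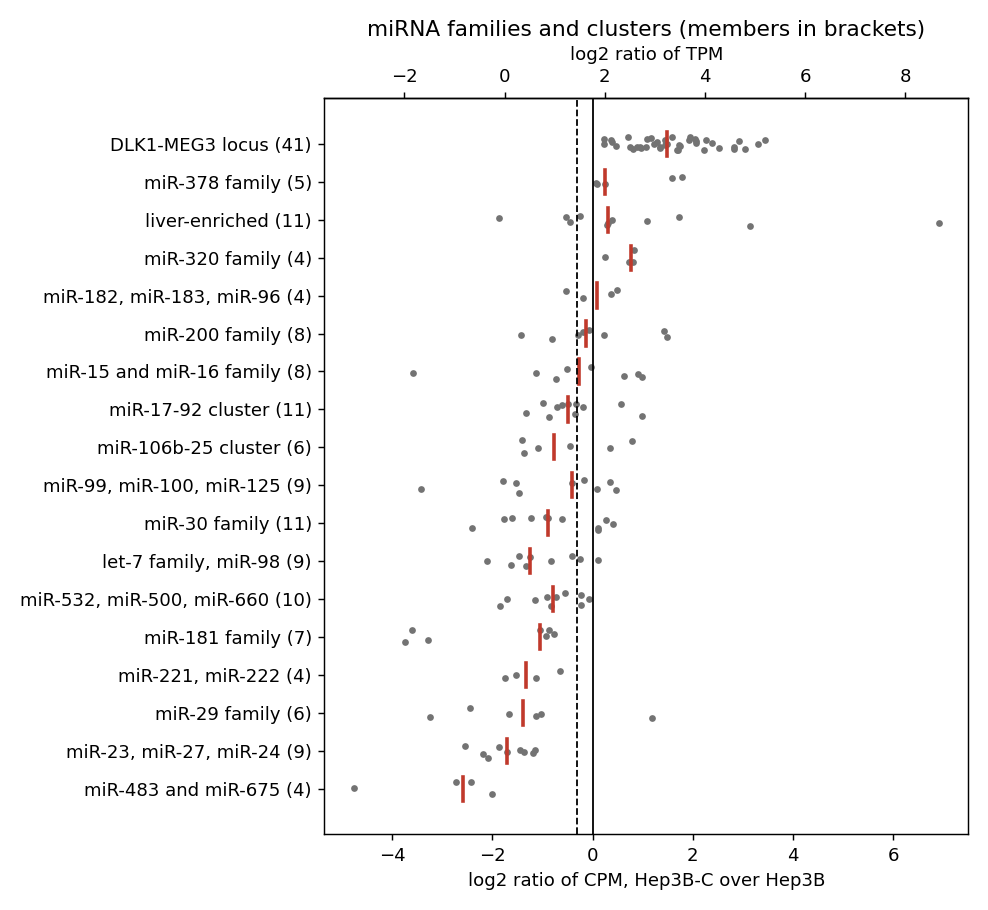
Log2 ratio of Hep3B-C over Hep3B for each member that reached 10 counts in either library (points) of 18 miRNA lists, in CPM on the lower axis and in TPM on the upper; red bars are list medians, the dashed line is the median of all 475 miRNAs (-0.31) and the vertical spread of points carries no value. The DLK1-MEG3 members lie at 0.23 to 3.44 and the hsa-miR-23, hsa-miR-27 and hsa-miR-24 members at -2.54 to -1.16.

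Seeds were compared after matching the names to RefSeq. Of the 475 miRNAs, 345 had a RefSeq sequence, holding 93.0% of the counts in Hep3B and 94.9% in Hep3B-C, and they carried 285 seeds, 34 of them shared by 2 or more names. The seed CUGGACU of hsa-miR-378 and hsa-miR-378c went from 6.99% to 23.95% of miRNA counts, and AGCUUAU of hsa-miR-21 and hsa-miR-590-5p from 18.97% to 10.47%. The seed AAAGUGC, common to hsa-miR-17, hsa-miR-20a, hsa-miR-93, hsa-miR-106a and hsa-miR-106b, went from 4.74% to 2.52%. The seed CAGUGCA of hsa-miR-148a, hsa-miR-148b and hsa-miR-152 went from 6.15% to 7.13%. Among the matched names, the 10 most abundant seeds held 76.2% of the counts in Hep3B and 80.1% in Hep3B-C. Abundant names without a match are left out of this ranking and of the seed sums. They include hsa-miR-30d (2.89% and 1.56%) and hsa-miR-151-3p (2.19% and 2.55%). Across these 345 sequences the log2 ratio in CPM had a Pearson r of 0.09 with GC content, given as a description since the sequences share both libraries.

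Both arms of a hairpin come from 1 precursor, and 97 hairpins had both arms named, each arm reaching 10 counts in either library. In CPM both arms lay above 0 for 18 hairpins, both below 0 for 54 and on opposite sides for 25. Across the 97 hairpins the log2 ratios of the arms had a Pearson r of 0.59, a description over hairpins of the same libraries. Of the 60 hairpins with at least 10 counts in all 4 values, 27 had arms that differed by under 0.5 in log2 ratio and 16 by 1 or more. Among the 62 pairs with an asterisk, the asterisk arm was relatively higher in Hep3B-C in 31 and lower in 31. Names with an asterisk as a group (78 kept) had 11 called higher and 26 lower in CPM and a median of -0.52, and 45 called higher and 5 lower in TPM. Over all miRNAs 17.7% and 25.1% were called higher and lower in CPM, and 67.4% and 5.05% in TPM.

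The arms of some hairpins moved apart by more than counting error. These are named for the size of the arm difference, after the values were seen. Hsa-miR-15b had 403 counts in Hep3B and 2506 in Hep3B-C while hsa-miR-15b* had 73 and 19, so the asterisk arm went from 15.3% (12.2% to 18.9%) to 0.752% (0.454% to 1.17%) of the reads of both arms. Hsa-miR-30e* went from 29.8% to 51.9% of the reads of its hairpin, with 5758 and 23904 counts beside 13555 and 22133 for hsa-miR-30e, and so became the more abundant arm. Hsa-miR-30a* went from 15.7% to 34.4% and hsa-miR-194* from 8.33% to 20.8%. In the other direction, hsa-miR-22* (73 and 33 counts) went from 14.8% to 4.13% and hsa-miR-574-3p (429 and 278 counts) from 67.9% to 35.6%. Hsa-miR-885-3p went from 61.0% to 88.1% with 291 and 1181 counts beside 186 and 159 for hsa-miR-885-5p, which was called lower in CPM (-1.87) but not in TPM (-0.11). By contrast, hsa-miR-21* was 0.0766% of its hairpin's reads in Hep3B and 0.0773% in Hep3B-C. A change of scale moves both arms alike and leaves these shares as they are.

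**Figure D5:**
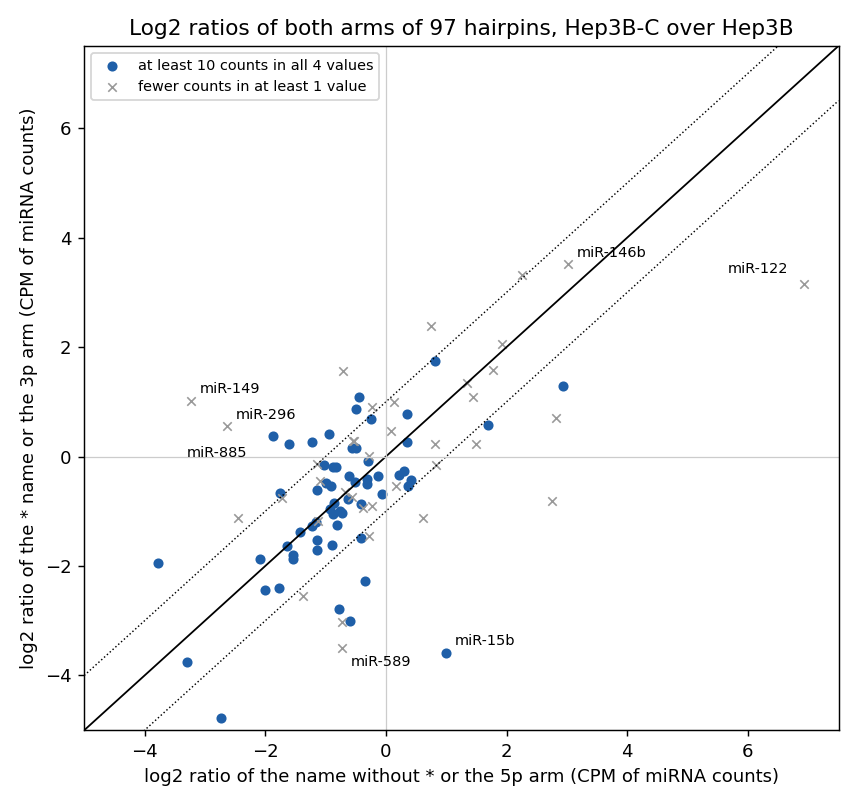
Log2 ratios (Hep3B-C over Hep3B, in CPM) of both arms of 97 hairpins, with the name without an asterisk or the 5p arm on the x axis and the asterisk name or the 3p arm on the y axis; the solid line marks equal ratios and dotted lines a difference of 1. Hsa-miR-15b lies at 0.99 and -3.58, the pair furthest from the line among the filled points, which have at least 10 counts in all 4 values.

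The late-numbered miRNAs, 3000 and above in miRBase, were mostly of low counts. Of them, 86 had at least 10 counts in either library, and all late-numbered names together summed to 3186 counts in Hep3B and 8933 in Hep3B-C. In CPM 17 were called higher, near the 17.7% of all miRNAs, and 12 lower, beside 25.1%, with a median of -0.06, beside -0.31 for all miRNAs. Of the 17 miRNAs at 0 counts in Hep3B, 7 were late-numbered names and 3 came from the DLK1-MEG3 locus. Of all 475 kept miRNAs, 86 were late-numbered and 41 came from that locus. All 17 passed the count minimum through Hep3B-C, so no result about either group is read from this split. In Hep3B-C these 17 miRNAs had between 10 and 83 counts, so none was abundant.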

How the data were processed

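Small RNA of the hepatoma line Hep3B and of the Hep3B-C stem cells derived from it had been sequenced on an Illumina Genome Analyzer II, 1 library each. The authors removed contaminant, redundant and short reads (under 18 nt), aligned what remained to NCBI Build 36.1 of the human genome and assigned it to miRBase release 17. The deposited values are raw counts per miRNA with no normalization. The strand setting of the counting is not given in the sources used here.

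Counts were divided by the total reads of the study (16782602 in Hep3B and 15440438 in Hep3B-C) for TPM, the main scale, or by the miRNA counts (1739278 and 5430195) for CPM. MiRNAs that reached 10 counts in either library were kept, a count of 0 was set at 3 counts, and a ratio of at least 2-fold was called. Intervals are exact binomial (Clopper-Pearson) at 95% from the 2 counts of a miRNA, and the ratio and interval code was tested on simulated data. No test across libraries was possible with 1 library a side.

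MiRNAs were named by a rule. It took the 15 highest and 15 lowest by the near bound of the interval, the 15 largest shares of either library, for each list described up to 6 members by summed counts with the highest and lowest ratio, and the other arms of these. Hairpins named for arm differences and hsa-miR-3591-5p were added after their values were seen. The comparison, the lists and the named miRNAs were chosen with earlier results of these data known. Names were matched by hand to current RefSeq names for sequences, and positions come from RefSeq and GENCODE release 29 on GRCh38, not from the files. Alternatives were other library sizes (edgeR 4.0.16 TMM, DESeq2 1.42.0 size factors), filters, treatments of 0 and call rules. Tools were Python 3.11.15, scipy 1.17.1, numpy 2.4.6, pandas 2.3.3 and R 4.3.3.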

Additional observations from a re-analysis of the deposited data

Results flagged for a closer look

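Of 105 named miRNAs, 8 went past 2-fold in opposite directions in the Hep3B and Huh7 pairs on both scales. All 8 reached 10 counts in either library of each pair. The differences between the pairs were not tested, since each library stands alone. In CPM, the log2 ratio of the Hep3B pair minus that of the Huh7 pair was 8.17 for hsa-miR-122 (6.92 and -1.25) and 5.09 for hsa-miR-122* (3.15 and -1.95, with 279 and 51 counts in Huh7 and Huh7-C). It was 5.59 for hsa-miR-146b-3p (3.51 and -2.08, with 18 and 3 counts in the Huh7 pair) and 2.31 for hsa-miR-29b-1* (1.18 and -1.13). The other 4 of the 8 came from the DLK1-MEG3 locus and differed in the same way. The difference was 6.09 for hsa-miR-379 (1.70 and -4.40), 7.24 for hsa-miR-381 (2.53 and -4.70), 6.34 for hsa-miR-382 (3.04 and -3.30) and 3.43 for hsa-miR-127-3p (1.35 and -2.08, the last with 18 and 0 counts in the Huh7 pair and so set against 3 counts).

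Over all 359 miRNAs that reached 10 counts in either library of both pairs, 15 went past 2-fold in opposite directions on both scales, 13 of them higher in Hep3B-C. On both scales, 7 were past 2-fold higher in both pairs and 8 lower. The 15 in opposite directions include hsa-miR-411 and hsa-miR-889 of the DLK1-MEG3 locus, which are not among the 105 named miRNAs.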

How the results depend on the processing

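The scale decided the balance of the calls. In TPM 320 miRNAs were called higher and 24 lower in Hep3B-C (93.0% of the calls higher), with a median log2 ratio of 1.46. The counts called higher and lower and the median were 84, 119 and -0.31 in CPM (41.4% higher), 118, 84 and 0.04 with TMM library sizes (58.4%), 130, 76 and 0.18 with DESeq2 size factors (63.1%), and 112, 87 and -0.03 in CPM without the 5 most abundant miRNAs (56.3%). The shift of every log2 ratio against total reads was 1.76, 1.41, 1.28 and 1.48.

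In TPM, 208 were called higher over miRNAs that reached 10 counts in both libraries (median 1.25) and 199 that reached 50 counts in either. With more than 3 counts in either library as the filter (614 miRNAs) the median was 1.34. With 1 TPM added to both libraries 15 were called lower and the median was 0.95, and 9 were called lower when the interval had to lie wholly past 2-fold. Other counts under these settings stayed within 1.5 times.

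Of 105 named miRNAs, 6 called higher in TPM fell below 0 in CPM. These were hsa-let-7a (-0.25), hsa-miR-192 (-0.53), hsa-miR-194 (-0.45), hsa-miR-200b (-0.29), hsa-miR-20a (-0.62) and hsa-miR-96 (-0.20). With TMM, hsa-miR-192, hsa-miR-194 and hsa-miR-20a had -0.18, -0.10 and -0.27, and with DESeq2 size factors hsa-miR-192 and hsa-miR-20a had -0.05 and -0.13. Without the 5 most abundant miRNAs, hsa-miR-192, hsa-miR-194, hsa-miR-200b and hsa-miR-20a had -0.25, -0.17, -0.01 and -0.34. With 0.5 counts added, no value of the 105 left its interval. With 1 TPM added, 14 did, all of them moving toward 0. Among these hsa-miR-1262 went from 6.43 to 4.36, hsa-miR-146b-3p from 5.28 to 2.75, hsa-miR-122* from 4.91 to 2.67, hsa-miR-323-3p from 5.21 to 1.60 and hsa-miR-655 from 1.99 to 0.78, under 2-fold.

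No paired analysis was possible because each condition has 1 library. Differences between cultures of 1 line were not measured, and the depth of Hep3B limits ratios of miRNAs under 10 counts there.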

Other observations

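Hsa-miR-1269, hsa-miR-1269b, hsa-miR-215, hsa-miR-375 and hsa-miR-378 were past 2-fold higher on both scales in the Huh7 pair as well as in the Hep3B pair. In CPM the log2 ratios in the 2 pairs were 1.39 and 5.61 for hsa-miR-1269, with 3 counts in Huh7 and 103 in Huh7-C, and 1.65 and 3.10 for hsa-miR-1269b. They were 1.73 and 2.01 for hsa-miR-215, 1.54 and 1.87 for hsa-miR-375 and 1.78 and 2.01 for hsa-miR-378. Hsa-miR-210, the hypoxia miRNA, was lower in both pairs (-3.93 and -1.75), as were hsa-miR-22* (-2.79 and -4.60) and hsa-miR-199a-3p (and its twin hsa-miR-199b-3p) (-3.01 and -1.96).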
